A study of Mus musculus with 9 samples.

Results

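The 10 genes described here, measured in the colon RNA of 9 mice, are the transmembrane mucins Muc1, Muc3, Muc4, Muc13 and Muc20, the gastric-type secreted mucins Muc5ac and Muc6, the trefoil peptides Tff1 and Tff2, and A4gnt, the glycosyltransferase that caps gastric gland mucin. They were picked by gene symbol, and all 10 were among the 21498 symbols in the files. Male ICR mice, an outbred albino stock, entered the study at 5 weeks of age and were killed at the end of week 18. The Control group of 3 mice received neither carcinogen nor antibody, and its tissue was normal colorectal mucosa. In the remaining 6 mice, azoxymethane (AOM), a colon carcinogen, was injected at 10 mg/kg and followed by 3 cycles of dextran sulfate sodium (DSS), an agent that injures the colon epithelium, in drinking water at 2% for 7 days, 1.5% for 5 days and 1.5% for 5 days. Of these, 3 received a negative control IgG antibody (IgG mice) and 3 an antibody against S100a9, an inflammatory protein of neutrophils and monocytes (anti-A9 mice), each at 1.5 mg/kg. The labels call the tissue of both AOM/DSS groups colorectal adenocarcinoma. The study describes intestinal mucosa for all groups, but elsewhere speaks of adenocarcinoma tissue for IgG and of colon mucosa for anti-A9 mice. The tumor content of each sample is therefore not known. Between anti-A9 and IgG mice, a difference in the tissue taken cannot be told apart from the antibody. Antibody alone was not given to untreated mice, so IgG and Control differ by AOM, DSS and antibody together. The AOM/DSS model is induced by chemicals and arises on repeated colitis.

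Mucins are long proteins whose repeats carry dense O-linked sugar chains. Secreted gel-forming mucins make up the mucus, with Muc2 as the gel former of the intestine and Muc5ac and Muc6 as those of the stomach, whereas transmembrane mucins sit in the apical membrane of epithelial cells and form the glycocalyx. Trefoil peptides are small secreted proteins that protect and help to restore the mucosal surface, Tff1 and Tff2 mainly in the stomach and Tff3 in the intestine.

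The gastric-type genes lie in gene clusters with their intestinal relatives. On GRCm38, the build that the labels name, Muc6 spans chr7:141633456-141655319 on the minus strand and Muc5ac chr7:141788972-141819231 on the plus strand, with Muc2 between them and Muc5b after them, in a cluster of 240 kb. Tff2 (chr17:31141049-31144282) and Tff1 (chr17:31161395-31165277) lie on the minus strand next to Tff3, and the 3 trefoil genes together span 40.0 kb. A4gnt lies at chr9:99612502-99622367 on the plus strand. Of the transmembrane mucins, Muc1 lies at chr3:89229057-89233381 (plus), Muc3 at chr5:137134922-137149322 (minus), and Muc13 at chr16:33794037-33819934 (plus). Muc4 (chr16:32735886-32782391, plus) and Muc20 (chr16:32777419-32797435, minus) run toward each other and overlap, with 627 exonic bases shared on opposite strands, which are 5.33% of the exonic bases of Muc4 and 15.6% of those of Muc20. Whether the authors counted by strand is not stated, so reads from that stretch of the pair cannot be told apart. Of the 50-base words of Tff1 transcripts, 18.1% also occurred in the gene model Gm15318, and of those of Muc13, 5.20% occurred in Gm15657, whereas Muc3 shared 0% with any other gene, including its neighbor Muc3a.

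To show the sequence in front of the genes whose levels are compared most closely below, the 250 bases upstream of the start site are given for Muc6, Muc1 and Muc20, which had higher means in IgG mice, and for Muc3, which had a lower mean. The sequences are from RefSeq on GRCm38.p6, which held promoters for 7 of the 10 members (Tff1, Tff2 and Muc5ac had no entry). They read from 5′ to 3′ on the strand of the gene, and capitals mark matches to any of the 6 motifs described after them. Muc6 is from chr7:141655394-141655643, Muc1 from chr3:89228806-89229055, Muc20 from chr16:32797436-32797685 and Muc3 from chr5:137166047-137166296.
Muc6: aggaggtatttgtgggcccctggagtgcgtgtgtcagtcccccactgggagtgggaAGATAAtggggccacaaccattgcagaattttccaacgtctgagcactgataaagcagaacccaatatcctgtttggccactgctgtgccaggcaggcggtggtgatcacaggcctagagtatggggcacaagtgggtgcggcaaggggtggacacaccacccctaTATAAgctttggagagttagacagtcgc
Muc1: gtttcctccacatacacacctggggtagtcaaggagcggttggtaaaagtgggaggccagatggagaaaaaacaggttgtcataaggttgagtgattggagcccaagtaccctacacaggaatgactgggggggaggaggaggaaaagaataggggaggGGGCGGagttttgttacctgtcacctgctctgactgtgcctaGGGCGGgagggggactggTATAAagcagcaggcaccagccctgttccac
Muc20: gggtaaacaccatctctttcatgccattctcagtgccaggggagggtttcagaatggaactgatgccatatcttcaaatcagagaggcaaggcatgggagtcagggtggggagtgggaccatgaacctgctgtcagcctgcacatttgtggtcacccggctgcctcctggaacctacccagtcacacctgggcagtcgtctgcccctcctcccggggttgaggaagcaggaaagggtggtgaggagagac
Muc3: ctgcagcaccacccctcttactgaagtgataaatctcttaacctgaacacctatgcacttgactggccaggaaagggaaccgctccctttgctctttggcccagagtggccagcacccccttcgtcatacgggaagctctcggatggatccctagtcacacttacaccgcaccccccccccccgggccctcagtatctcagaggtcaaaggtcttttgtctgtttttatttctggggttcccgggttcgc
The motifs searched were TATAA on the strand of the gene (a TATA box) and, on both strands, the GATA motif AGATAA, the AP-1 motif TGANTCA, the STAT motif TTCNNNGAA, the TCF/LEF motif CTTTGAT and the Sp/KLF motif GGGCGG. Over all 32851 mouse promoters in the table, these letters were found in 16.0%, 9.99%, 6.75%, 7.02%, 3.21% and 32.7%, respectively. Muc6 held a TATA box and a GATA match, Muc1 a TATA box and 2 Sp/KLF matches, and Muc20 and Muc3 none of the 6. Among the promoters not printed, Muc4 held a TATA box, Muc13 a STAT and an AP-1 match at its upstream start and an AP-1 match at its second start, and A4gnt a GATA match. The annotation with which the gene positions were taken begins Muc3, Muc6 and Muc1 at other start sites than RefSeq does, with the largest shift for Muc3. A match of letters is a description of the sequence and does not show that a factor binds there.

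Values are taken as FPKM (fragments per kilobase of transcript, scaled to the fragments of the sample), which adjust for transcript length. The order of genes by level therefore rests on the authors' gene models, which are not known. For Muc3, and by less for Muc6 and Muc1, RefSeq and the annotation used here differ in the start site. The 9 samples summed to between 308377 and 408811 FPKM. Counts were not used here, so the absolute depth is unknown, but low values of a gene lay near whole multiples of a smallest step, and comparing the steps between samples gave a relative depth that differed by at most 1.31-fold. The step of a gene was its own lowest value above 0 after correction for relative depth. That value is 1 step by definition, and Muc5ac had no other. The further values of Tff1, Tff2 and Muc5b and of Muc6 in Control lay within 3.93% of a whole multiple. The gastric gene Gkn1 lay at 2.16 and 2.40 steps in IgG replicates 1 and 3, so step counts are approximate. Whether 1 step is 1 fragment is not known. An exact 0 can be a failed estimate: Galnt2, a glycosyltransferase that most cells use, was listed at 0 in all 9 samples, and Gapdh at between 0.156 and 0.755. Epithelial markers were high in every group, with the 8 genes Epcam, Cdh1, Krt8, Krt18, Krt19, Vil1, Cdx1 and Cdx2 summing to 4117 to 5503 FPKM in Control, 3706 to 5233 in IgG and 3587 to 4523 in anti-A9 mice. Transcripts of S100a9, the antibody's target protein, were 0.371, 0.859 and 0.575 FPKM in Control, 63.1, 173 and 267 in IgG and 10.3, 11.6 and 5.54 in anti-A9 mice. IgG replicate 1 stood apart from the other IgG samples, with 812 FPKM for the sum of 8 absorptive colonocyte markers against 1886 and 2253, and with 1706 FPKM for the sum of 6 goblet cell markers against 9535 and 13930. Values without it are given for members whose difference it moved most.

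In Control colon the members ranged from 1709 FPKM for Muc3 to values listed at 0. Muc3 and Muc13 were the abundant transmembrane mucins, Muc1, Muc4 and A4gnt stood at a few FPKM, Muc20 was below 0.4 FPKM, and Muc6, Muc5ac, Tff1 and Tff2 were at or near 0. By group medians the order in Control was Muc3, Muc13, Muc1, Muc4, A4gnt, Muc20 and Muc6, where the ranges of Muc1 and Muc4 and those of Muc4 and A4gnt overlapped. In IgG mice Muc13 (median 481 FPKM) stood above Muc3 (median 384 FPKM), although their ranges overlapped, and the order below them was Muc1, Muc4, A4gnt, Muc6, Muc20, Tff1 and Tff2, with overlapping ranges from Muc4 downward. In anti-A9 mice Muc3 was again above Muc13, Muc4 stood above Muc1 without overlap, and A4gnt, Muc20 and Muc6 followed.

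**Figure D1:**
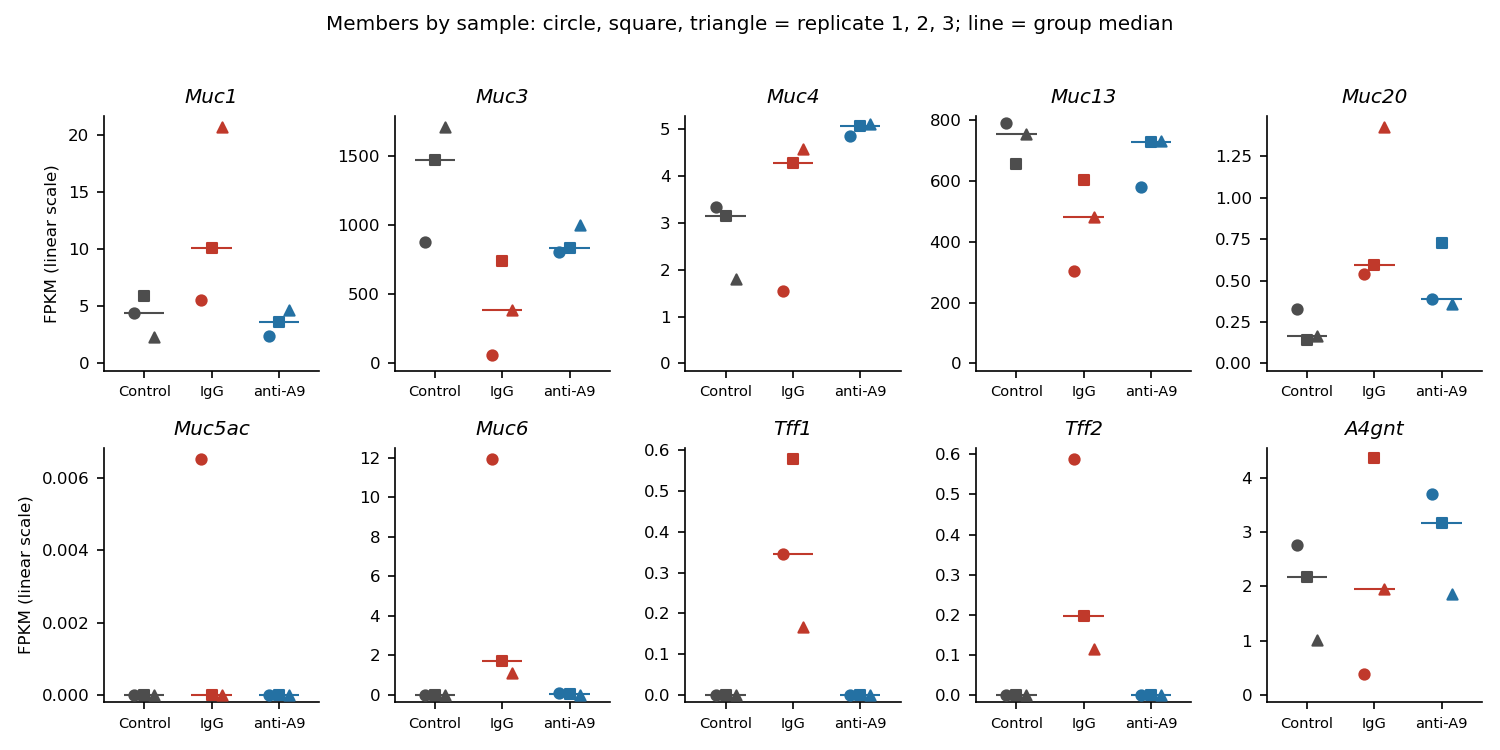
FPKM of the 10 members on linear axes, 1 panel a gene with its own scale, for 3 Control, 3 IgG and 3 anti-A9 mice; symbols mark the replicate and lines the group median. Muc6, Tff1 and Tff2 lie above their Control and anti-A9 values in all 3 IgG mice, whereas Muc3 lies below its Control values in all 3.

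The first comparison, IgG against Control, asks how AOM/DSS tissue differed from normal mucosa. The gastric-type genes Muc6, Tff1 and Tff2 were higher in IgG mice, whereas none of the transmembrane mucins changed at an adjusted p under 0.05. The test was limma's moderated linear model of log2(FPKM + 0.1), run on the 15278 genes that reached 0.1 FPKM in 3 or more samples, and p-values were Benjamini-Hochberg adjusted over all of them. Of the 9 members tested, 3 passed as higher and 0 as lower. Over all genes tested the shares were 8.18% and 3.01% (1250 and 460 genes, or 944 and 663 after quantile normalization). At an unadjusted p under 0.05, Muc1, Muc20, Muc6, Tff1 and Tff2 were higher and Muc3 and Muc13 lower, beside 19.4% and 10.1% of all genes. Muc6, Tff1 and Tff2 passed the filter on low values through their IgG samples, so they had to be high in IgG mice to be tested, and nothing is read from the members' counts against these shares in any comparison with IgG mice. Muc5ac did not pass the filter. In bulk tissue, fewer cells of a type and less RNA per cell cannot be told apart.

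Muc6, the gel-forming mucin of gastric glands, was listed at 0.00312, 0 and 0.00371 FPKM in Control mice. In the IgG mice it was 11.9, 1.70 and 1.10 FPKM. All IgG values lay above all Control values, and IgG replicate 1 was the highest of the 3. On the log2(FPKM + 0.1) scale the difference was 4.86 ± 0.75 (SE, n = 3 and 3; adjusted p = 0.00649, limma). This size depends on the constant added, since Control was at or near 0, and it ran from 2.06 with 1 added to 7.86 with 0.01 added. With 1 added the call for Muc6 was lost (adjusted p = 0.0513). Without IgG replicate 1 the difference was 3.85 (adjusted p = 0.00161). In steps of the lowest value, corrected for relative depth, the 2 Control values above 0 were about 1 step each and the IgG values about 3390, 587 and 320 steps.

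Tff1, the trefoil peptide of gastric surface cells, was listed at 0 in all Control and all anti-A9 samples. In the IgG mice it was 0.346, 0.578 and 0.168 FPKM, or about 2, 4 and 1 steps. It was therefore present above 0 in every IgG sample but within a few steps of its own lowest value (adjusted p = 0.00799 in limma, IgG against Control, on log2(FPKM + 0.1)). Tff2, the trefoil peptide of gastric gland mucous cells, was likewise listed at 0 in all Control and anti-A9 samples. Its IgG values were 0.588, 0.196 and 0.115 FPKM, or about 5, 2 and 1 steps (adjusted p = 0.0255, limma). The call for Tff2 was lost when any Control sample was left out, with adjusted p of 0.0747, 0.0795 and 0.0519 without Control replicate 1, 2 and 3, and also with 1 FPKM added in place of 0.1 (adjusted p = 0.0863). It was lost as well with only the 2 groups compared. No fold is given for Tff1 and Tff2, because both other groups were listed at 0. The limma spread is shared by all groups, and the Control and anti-A9 values, all at 0, showed none. The p-values of Tff1 and Tff2, in both comparisons with IgG mice, therefore do not measure how such low values vary in those groups. Without IgG replicate 1 the adjusted p was 0.0183 for Tff1 and 0.0221 for Tff2 in the same comparison.

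Muc5ac, the gel-forming mucin of the gastric surface, was listed at 0 in 8 of 9 samples and at 0.00651 FPKM in IgG replicate 1. That value is 1 step by definition and was not tested. A4gnt adds the terminal alpha-linked N-acetylglucosamine that gastric gland mucins carry on Muc6. Its Control values were 2.77, 2.17 and 1.02 FPKM, its IgG values 0.379, 4.36 and 1.95 FPKM and its anti-A9 values 3.71, 3.17 and 1.85 FPKM. A4gnt was thus present in all 9 samples, those with Muc6 listed at 0 included, and the lowest and the highest value were both in the IgG group. The difference between IgG and Control was -0.25 ± 0.74 on the log2 scale (SE; adjusted p = 0.852, limma) and 0.64 (adjusted p = 0.497) without IgG replicate 1.

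Muc3, an abundant transmembrane mucin of the enterocyte brush border, was 877, 1474 and 1709 FPKM in Control mice. In the IgG mice it was 57.9, 742 and 384 FPKM. All IgG values lay below all Control values, with IgG replicate 1 far below the other samples. The mean was 1353 ± 429 FPKM in Control and 395 ± 342 FPKM in IgG (SD, n = 3 each). The log2 difference was -2.35 ± 0.79 (SE; unadjusted p = 0.0155, adjusted p = 0.0876, limma), so the gene did not pass. The adjusted p was 0.0813 without IgG replicate 1, with a log2 difference of -1.29, and 0.0237 without IgG replicate 2, with a log2 difference of -3.12. The neighbor Muc3a gave 38.1, 37.1 and 35.9 FPKM in Control and 4.63, 29.1 and 30.0 FPKM in IgG, and the groups did not overlap (log2 difference -1.21 ± 0.60, adjusted p = 0.218).

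Muc13, a transmembrane mucin of the colon surface with a cell-adhesion-like extracellular part, was 789, 656 and 754 FPKM in Control mice. It was 305, 604 and 481 FPKM in IgG mice, all below the Control values. The means were 733 ± 69.4 FPKM in Control and 464 ± 150 FPKM in IgG (SD, n = 3 each), with a log2 difference of -0.71 ± 0.27 (SE; adjusted p = 0.124) and of -0.44 (adjusted p = 0.256) without IgG replicate 1. Across all 9 samples the log2 values of Muc13 and Muc3 had a Pearson correlation of 0.93, given as a description since the samples share groups and libraries. Absorptive colonocyte markers (Car1, Car4, Slc26a3, Aqp8, Lgals4, Krt20, Cyp2c55 and Slc37a2) moved with both genes. Their sum was 2977 to 3552 FPKM in Control, 812 to 2253 in IgG and 2111 to 3307 in anti-A9 mice. Of the 8 genes, 6 were lower in every IgG than in every Control sample, beside 10.2% of all genes tested. Their part in the levels of Muc3 and Muc13 was not tested.

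Muc1, a transmembrane mucin of many glandular epithelia whose cytoplasmic tail takes part in signaling, was 4.38, 5.93 and 2.30 FPKM in Control mice. In the IgG mice it was 5.53, 10.1 and 20.8 FPKM. The lowest IgG value lay below the highest Control value, so the groups overlapped, and IgG replicate 3 was the highest of all samples. The log2 difference was 1.40 ± 0.51 (SE; unadjusted p = 0.0220, adjusted p = 0.107, limma). Without IgG replicate 1 it was 1.86 (adjusted p = 0.0523) and without IgG replicate 3 it was 0.92 (adjusted p = 0.231).

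Muc20, a transmembrane mucin known to bind the HGF receptor Met, was 0.331, 0.143 and 0.168 FPKM in Control mice. It was 0.540, 0.593 and 1.43 FPKM in IgG mice, all above the Control values. The log2 difference was 1.53 ± 0.42 (SE), with an adjusted p of 0.0507 in limma, next to the threshold. It passed without the intensity trend in the variance model (adjusted p = 0.0469) and did not pass in any of the 9 fits without 1 sample, where the adjusted p was 0.0507 to 0.154. Muc4, a large transmembrane mucin that binds ErbB2, was 3.34, 3.15 and 1.81 FPKM in Control and 1.54, 4.29 and 4.57 FPKM in IgG mice, with overlap of the groups (log2 difference 0.22 ± 0.40, adjusted p = 0.755, and 0.71, adjusted p = 0.151, without IgG replicate 1). Muc20 and Muc4, which share exonic bases on opposite strands, were both lowest in replicate 1 and highest in replicate 3 of the IgG samples. Muc4 was nearly equal in replicates 2 and 3. The part of shared reads in either level was not tested.

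By the thresholds that the study used, a change of over 2-fold with an unadjusted p under 0.05, 5 of the 9 members tested were higher (Muc1, Muc20, Muc6, Tff1 and Tff2) and 1 was lower (Muc3), beside 8.43% and 5.19% of all genes. Groups did not overlap for 4 members as higher and 2 as lower, beside 20.7% and 10.2% of all genes.

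**Figure D2:**
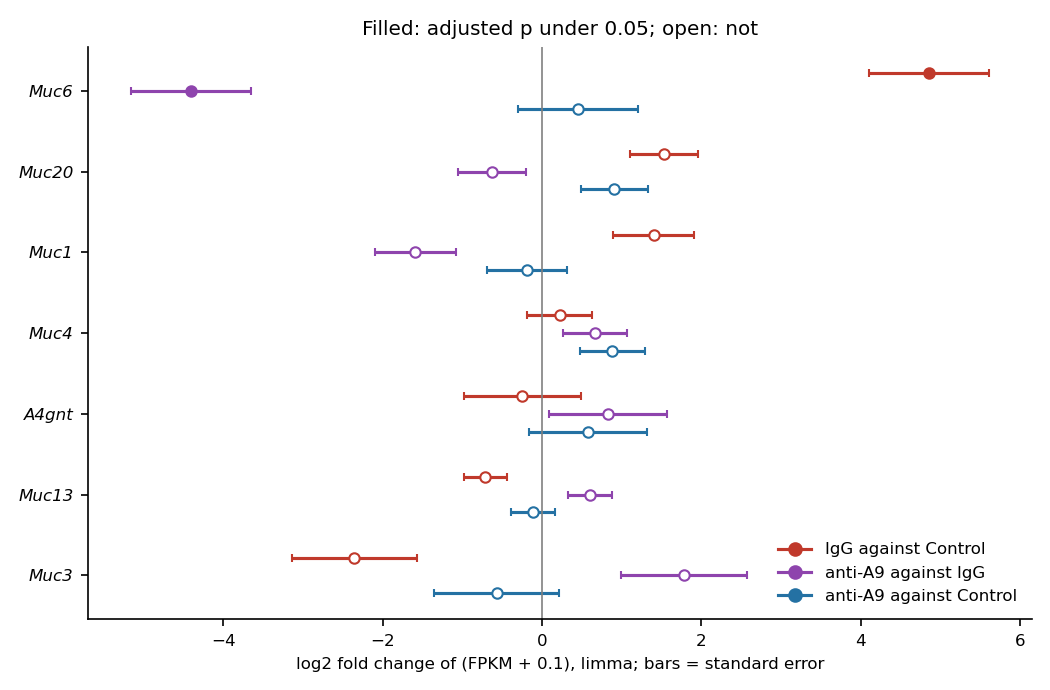
Log2 fold change of (FPKM + 0.1) for 7 members in the 3 comparisons, with bars for the standard error from limma; filled points passed an adjusted p under 0.05. Tff1 and Tff2 are left out because 2 groups were listed at 0, and Muc5ac because it was not tested; Muc6 passed in IgG against Control (4.86) and in anti-A9 against IgG (-4.40) and no other point did.

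The second comparison, anti-A9 against IgG, asks what the antibody against S100a9 changed within AOM/DSS mice. It shares the IgG samples with the first comparison, so a high or low IgG value enters both with opposite sign, and the values are set side by side without counting them as separate evidence. Muc6, Tff1 and Tff2 were lower in anti-A9 mice, which made 3 of the 9 members tested lower and 0 higher. Over all genes the shares were 14.4% lower and 6.72% higher (2193 and 1026 genes, or 1701 and 1421 after quantile normalization), and nothing is read from them here, because the 3 genes were tested through their IgG samples. By the study's thresholds Muc1 was lower as well, which made 4 members lower and 0 higher, beside 8.38% and 7.64% of all genes. At an unadjusted p under 0.05 alone the same 4 members were lower and 0 higher, beside 24.2% and 14.9% of all genes.

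Muc6 was 0.113, 0.0280 and 0 FPKM in anti-A9 mice, all below the lowest IgG value of 1.10 FPKM. The log2 difference was -4.40 ± 0.75 (SE; adjusted p = 0.01, limma) and -3.39 without IgG replicate 1 (adjusted p = 0.00381), and it was -6.29 with 0.01 added and smaller in size with 1 added (adjusted p = 0.0385). In steps of the lowest value, anti-A9 replicates 1 and 2 held about 40 and 10, more than the single steps of Control mice and fewer than the 320 steps of the lowest IgG sample. Tff1 (adjusted p = 0.00886) and Tff2 (adjusted p = 0.0207, limma) were listed at 0 in all anti-A9 samples. The call for Tff2 was lost without any anti-A9 sample, with adjusted p of 0.0667, 0.0692 and 0.0591 without replicate 1, 2 and 3.

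Muc1 was 2.37, 3.63 and 4.66 FPKM in anti-A9 mice, all below the IgG values, with a log2 difference of -1.59 ± 0.51 (SE; adjusted p = 0.0540, limma). It passed without IgG replicate 1 (log2 difference -2.05, adjusted p = 0.0365) and without Control replicate 3 (adjusted p = 0.0429). Muc3 was 806, 837 and 1000 FPKM, all above the IgG values, and the log2 difference of 1.78 ± 0.79 did not pass (adjusted p = 0.128). Without IgG replicate 2 it was 2.55 (adjusted p = 0.0361), and without IgG replicate 1 it was 0.72 (adjusted p = 0.208). Muc13 was 580, 727 and 732 FPKM and overlapped the IgG group (log2 difference 0.60 ± 0.27, adjusted p = 0.139), with a difference of 0.33 (adjusted p = 0.294) without IgG replicate 1.

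Muc4 was 4.84, 5.08 and 5.10 FPKM in anti-A9 mice, a narrow range that lay above all IgG and all Control values. Its log2 difference was 0.66 ± 0.40 against IgG (adjusted p = 0.250), 0.17 against IgG without IgG replicate 1 (adjusted p = 0.652), and 0.88 ± 0.40 against Control (adjusted p = 0.321). Muc20 was 0.388, 0.728 and 0.358 FPKM, between the other groups by mean, and overlapped the IgG group (log2 difference -0.62 ± 0.42, adjusted p = 0.297). A4gnt did not pass against IgG (log2 difference 0.82 ± 0.74, adjusted p = 0.426). Groups did not overlap for 2 members as higher (Muc3 and Muc4) and 4 as lower (Muc1, Muc6, Tff1 and Tff2), beside 18.5% and 28.5% of all genes.

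The comparison of anti-A9 with Control asks what remained different from normal mucosa under the antibody. No member passed, against 0.00655% of all genes in each direction, that is 1 gene higher and 1 lower of 15278. At an unadjusted p under 0.05, limma likewise gave 0 of the members in either direction, against 8.87% of all genes as higher and 7.10% as lower, and the study's thresholds gave 0 members against 2.28% and 0.864% of all genes. The nearest were Muc4 (unadjusted p = 0.0577) and Muc20 (unadjusted p = 0.0614), which were higher in every anti-A9 than in every Control sample (2 members, against 17.3% of all genes). Muc20 differed by 0.91 ± 0.42 on the log2 scale (adjusted p = 0.327). Muc3 had a log2 difference of -0.57 ± 0.79 (adjusted p = 0.732), Muc1 of -0.19 ± 0.51 (adjusted p = 0.869), Muc13 of -0.11 ± 0.27 (adjusted p = 0.853), A4gnt of 0.58 ± 0.74 (adjusted p = 0.706) and Muc6 of 0.45 ± 0.75 (adjusted p = 0.782). With standard errors of this size and 3 mice a group, a missed threshold does not show that these genes returned to their Control level.

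**Figure D3:**
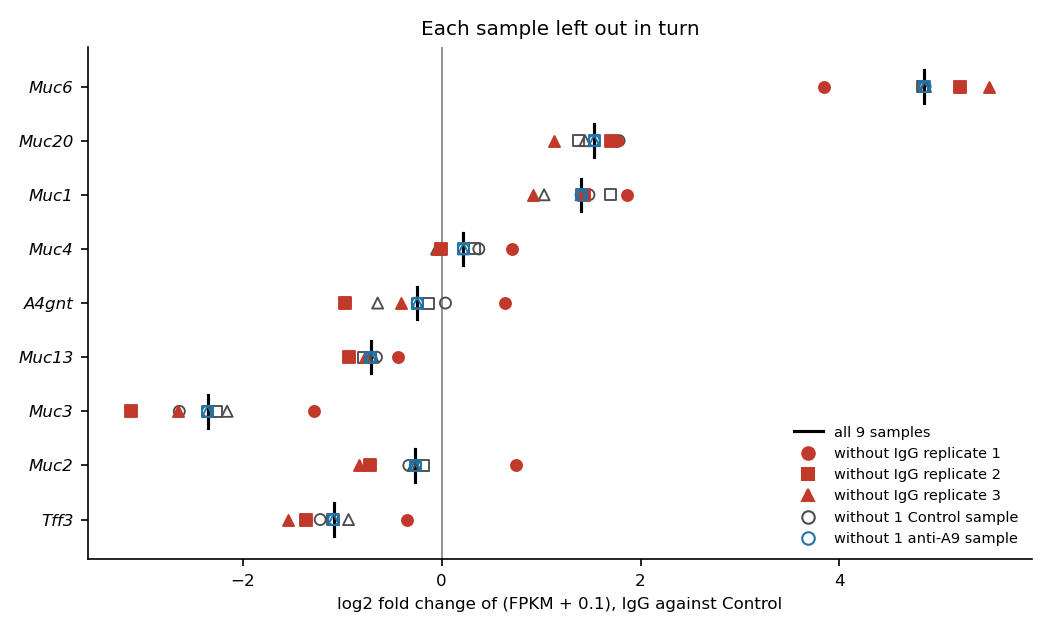
Log2 fold change of (FPKM + 0.1) in IgG against Control for 7 members and for Muc2 and Tff3, with all 9 samples (black bar) and with each sample left out in turn (symbols). Leaving out IgG replicate 1 moves Muc3 from -2.35 to -1.29 and A4gnt from -0.25 to 0.64 and turns Muc2 from -0.27 to 0.75, whereas Muc6 stays at 3.85 or above.

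The intestinal counterparts of the gastric-type genes showed how much IgG replicate 1 weighed. Muc2, the gel-forming mucin of goblet cells, was 232, 287 and 247 FPKM in Control, 51.6, 398 and 461 in IgG and 183, 202 and 202 in anti-A9 mice. The IgG group held both the lowest and the 2 highest values, and the log2 difference from Control was -0.27 ± 0.70 (SE; adjusted p = 0.829) with all samples but 0.75 (adjusted p = 0.0288) without IgG replicate 1. Against IgG, Muc2 in anti-A9 mice differed by -0.11 (adjusted p = 0.918) with all samples and by -1.13 (adjusted p = 0.00805) without that replicate. Tff3, the trefoil peptide of goblet cells, was 2593, 3058 and 3851 FPKM in Control, 531, 2149 and 2789 in IgG and 1598, 1668 and 2497 in anti-A9 mice. It stood above Tff1 and Tff2 in every sample, and it did not pass in any comparison (adjusted p = 0.258, 0.684 and 0.538 for IgG against Control, anti-A9 against IgG and anti-A9 against Control). Without IgG replicate 1 the log2 difference of Tff3 moved from -1.09 to -0.35 in IgG against Control (adjusted p = 0.586) and from 0.36 to -0.38 in anti-A9 against IgG (adjusted p = 0.447). In IgG replicate 1, Muc6 was at its highest and Muc2, Muc3, Muc4, Muc13, Tff3 and A4gnt were at their lowest of the 9 samples.

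Other genes of the mucus were summarized by lists. Of 10 other mucins, 6 were in the files and 3 could be tested, and 0 passed in any comparison; Muc5b, the airway mucin next to Muc5ac, was listed at 0 in Control and anti-A9 mice and at 1, 1 and 2 steps in IgG mice. Of 14 goblet cell genes, 1 rose in IgG against Control, 0 fell and 13 did not pass, beside 8.18% and 3.01% of all genes, with a median log2 difference of -0.64 against 0.09 over all genes. Without IgG replicate 1, 4 of them rose, and the median was 0.04 against 0.06; without IgG replicate 2, 1 fell. The gene that rose with all samples was Ang4, an antimicrobial ribonuclease made by Paneth and goblet cells, with 1.68, 23.6 and 25.9 FPKM in Control, 106, 301 and 371 in IgG and 5.64, 3.59 and 1.23 in anti-A9 mice (log2 difference 4.47 ± 1.03, adjusted p = 0.0278). It was the gene of this list that fell in anti-A9 against IgG (-6.23 ± 1.03, adjusted p = 0.00886). There 1 of 14 fell, 0 rose and 13 did not pass, beside 14.4% of all genes as lower and 6.72% as higher. Without IgG replicate 1, 5 fell, beside 1290 of the 15278 genes tested. Without IgG replicate 2, 1 rose, beside 1366 of the 15278. The rise of Ang4 was lost without IgG replicate 3 (adjusted p = 0.0720), and its fall held in all 9 fits without 1 sample. A sum of 6 Paneth cell markers, Ang4 included, moved alongside, with 78.9 to 187 FPKM in Control, 1022 to 1860 in IgG and 52.7 to 106 in anti-A9 mice. Of the 6, 5 were higher in every IgG than in every Control sample, beside 20.7% of all genes tested. Defa17, among the 5, passed the filter through its IgG samples, so nothing is read from this count. The sixth, Itln1, overlapped, with 58.5, 107 and 111 FPKM in Control and 39.1, 189 and 100 in IgG mice.

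Enzymes and a transporter that build and sulfate the O-linked sugars of mucins made a list of 37, of which 35 were tested. In IgG against Control, 2 rose, 2 fell and 31 did not pass, beside 8.18% and 3.01% of all genes, with a median log2 difference of -0.19 against 0.09 over all genes. Leaving out 1 sample gave 0 to 3 that rose (0 without IgG replicate 3, 3 without IgG replicate 2, 1 without Control replicate 1 or 2) and 1 to 4 that fell (4 without IgG replicate 2, 2 without Control replicate 3 and 1 in the other 7 fits). Without IgG replicate 1 the median was 0.00237 against 0.06. Gcnt4, which starts branches on O-glycans, was 0.252, 0.330 and 0.0955 FPKM in Control and 1.04, 0.632 and 1.38 in IgG mice (log2 difference 1.80 ± 0.39, adjusted p = 0.0236). Galnt3, which attaches the first sugar to the protein, was 10.7, 8.91 and 6.17 FPKM in Control and 15.3, 16.0 and 17.2 in IgG mice (0.94 ± 0.20, adjusted p = 0.0204). Both were higher in every IgG than in every Control sample, but the call was lost for Gcnt4 without Control replicate 1, IgG replicate 1 or IgG replicate 3 (adjusted p up to 0.0627) and for Galnt3 without Control replicate 2 or IgG replicate 3 (adjusted p up to 0.0611).

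The genes that fell were Slc26a2 and Chst5. Slc26a2, a sulfate transporter, was 68.1, 65.8 and 35.2 FPKM in Control, 8.03, 27.9 and 17.8 in IgG and 61.9, 63.1 and 106 in anti-A9 mice. It fell in IgG against Control (-1.76 ± 0.45, adjusted p = 0.0398) and rose in anti-A9 against IgG (2.23 ± 0.45, adjusted p = 0.0158). The fall of Slc26a2 held in 2 of the 9 fits without 1 sample, those without Control replicate 3 and IgG replicate 2 (adjusted p up to 0.126 in the others), and the rise was lost without anti-A9 replicate 2 or 3 (adjusted p up to 0.0534). Chst5, which sulfates N-acetylglucosamine, was 0.248, 0.271 and 0.198 FPKM in Control, listed at 0 in all IgG mice, and 0.0490, 0.0499 and 0.0817 FPKM in anti-A9 mice (adjusted p = 0.00419 for IgG against Control). Chst5 passed the filter through its Control samples alone, so it had to be high there to be tested. Another sulfotransferase of the list, Chst4, did not pass (log2 difference -0.88 ± 0.58, adjusted p = 0.340). Gcnt1, the enzyme of core branching, was 3.82, 6.82 and 5.44 FPKM in IgG and 12.3, 11.4 and 12.6 in anti-A9 mice and rose in that comparison (1.20 ± 0.24, adjusted p = 0.0156), though not when any anti-A9 sample was left out (adjusted p up to 0.0573). Thus 2 of 35 rose in anti-A9 against IgG and 0 fell, beside 6.72% and 14.4% of all genes, with a median of 0.19 against -0.06 over all genes. The number that rose was 0 without anti-A9 replicate 2 or 3, 1 without anti-A9 replicate 1, 5 without Control replicate 3 and 6 without IgG replicate 2, and the number that fell was 1, 3 and 2 without IgG replicate 1, IgG replicate 2 and Control replicate 3. In anti-A9 against Control 0 passed by limma.

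Genes of the gastric epithelium, a list of 16 besides the members, included 10 that could be tested. In IgG against Control 5 rose, 0 fell and 5 did not pass, beside 8.18% and 3.01% of all genes as higher and lower. Of the 5, Gkn1, Aqp5 and Atp4a passed the filter through their IgG samples (Aqp5 and Atp4a reached 0.1 FPKM elsewhere in Control replicate 1 alone), so they had to be high in IgG mice to be tested, and nothing is read from the count. Aqp5, a water channel of gastric and salivary glands, was 0.114, 0.0353 and 0.0704 FPKM in Control, 1.08, 0.691 and 2.77 in IgG and 0.0504, 0 and 0 in anti-A9 mice (3.03 ± 0.47, adjusted p = 0.00636). Gkn3, a gastrokine of the stomach mucosa, was 0.0511, 0.369 and 0.184 FPKM in Control, 1.60, 0.740 and 2.05 in IgG and 0.272, 0.140 and 0 in anti-A9 mice (2.42 ± 0.60, adjusted p = 0.0364, and 0.137 with 0.01 added). Pdx1, a transcription factor of the antrum, duodenum and pancreas, was 0.160, 0.492 and 0.711 FPKM in Control and 2.79, 1.34 and 2.11 in IgG mice (2.06 ± 0.47, adjusted p = 0.0261). Gkn1, another gastrokine, was listed at 0 in Control and anti-A9 mice and at 0.357, 0.136 and 0.390 FPKM in IgG mice (adjusted p = 0.00881). The limit given for the p-values of Tff1 and Tff2 holds for Gkn1 too. Atp4a, a subunit of the gastric proton pump, was the fifth gene that rose. The count of 5 was 2 to 5 without 1 sample; among the 5, Gkn3 was lost without any 1 of the Control samples, IgG replicate 1 or 3, or anti-A9 replicate 2 (adjusted p up to 0.112) and Pdx1 without Control replicate 1 or 2 or IgG replicate 1 or 3 (adjusted p up to 0.0694).

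In anti-A9 against IgG, 4 of the 10 fell (Aqp5, Gkn3, Gkn1 and Atp4a) and 0 rose, beside 14.4% and 6.72% of all genes. Nothing is read from this count either, because Gkn1, Aqp5 and Atp4a were tested through their high IgG samples. In anti-A9 against Control 0 passed. Aqp5 and Gkn3 were listed at 0 in 2 and 1 of the anti-A9 samples, so the sizes depend on the constant added. Aqp5 fell by 3.60 ± 0.47 on the log2 scale (adjusted p = 0.00439; -1.22 with 1 added and -6.14 with 0.01 added) and Gkn3 fell by 2.81 ± 0.60 (adjusted p = 0.0183; -1.08 with 1 added and -4.17 with 0.01 added; adjusted p up to 0.0596 without IgG replicate 3 or anti-A9 replicate 2 or 3). Gkn2 and Atp4b, defining genes of gastric mucous and parietal cells, were listed at 0 in all 9 samples. Sox2, a transcription factor of stomach and squamous foregut, was 15.0 FPKM in IgG replicate 1 and 0.210 and 0.576 FPKM in the other IgG samples, against 0.0774 to 0.376 FPKM in Control, and did not pass (adjusted p = 0.205). Summed markers of other epithelia were higher in IgG mice, as were Muc6, Tff1 and Tff2, though not every marker was. The sum of 8 gastric mucous, chief and parietal cell genes was 0.168 to 0.440 FPKM in Control, 1.19 to 3.06 in IgG and 0.109 to 0.303 in anti-A9 mice. Of the 8, 5 were higher in every IgG than in every Control sample, beside 20.7% of all genes tested. Gif and Cldn18, which are among the 5, were too low to be tested, so that share does not cover them. Gkn1 and Atp4a, also among the 5, passed the filter through their IgG samples. Nothing is read from this count. The sum of 8 squamous epithelium genes was 3.09 to 4.77 FPKM in Control, 10.6 to 51.1 in IgG and 2.92 to 4.65 in anti-A9. Krt14, Krt13, Krt4 and Lor, 4 of the 8, were higher in every IgG sample, beside 20.7% of all genes tested. Krt14 was the largest part of the IgG sums, at 37.1, 4.63 and 18.6 FPKM. Krt5 overlapped. Krt1, Krt10 and Trp63 had lower means in IgG (0.0288, 0.902 and 0.00384 FPKM) than in Control (0.0456, 1.02 and 0.00899 FPKM). Within the IgG group the squamous sum was 51.1, 10.6 and 35.4 FPKM in replicates 1, 2 and 3, while Muc6 was 11.9, 1.70 and 1.10. Their part in the levels of the members was not tested.

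**Figure D4:**
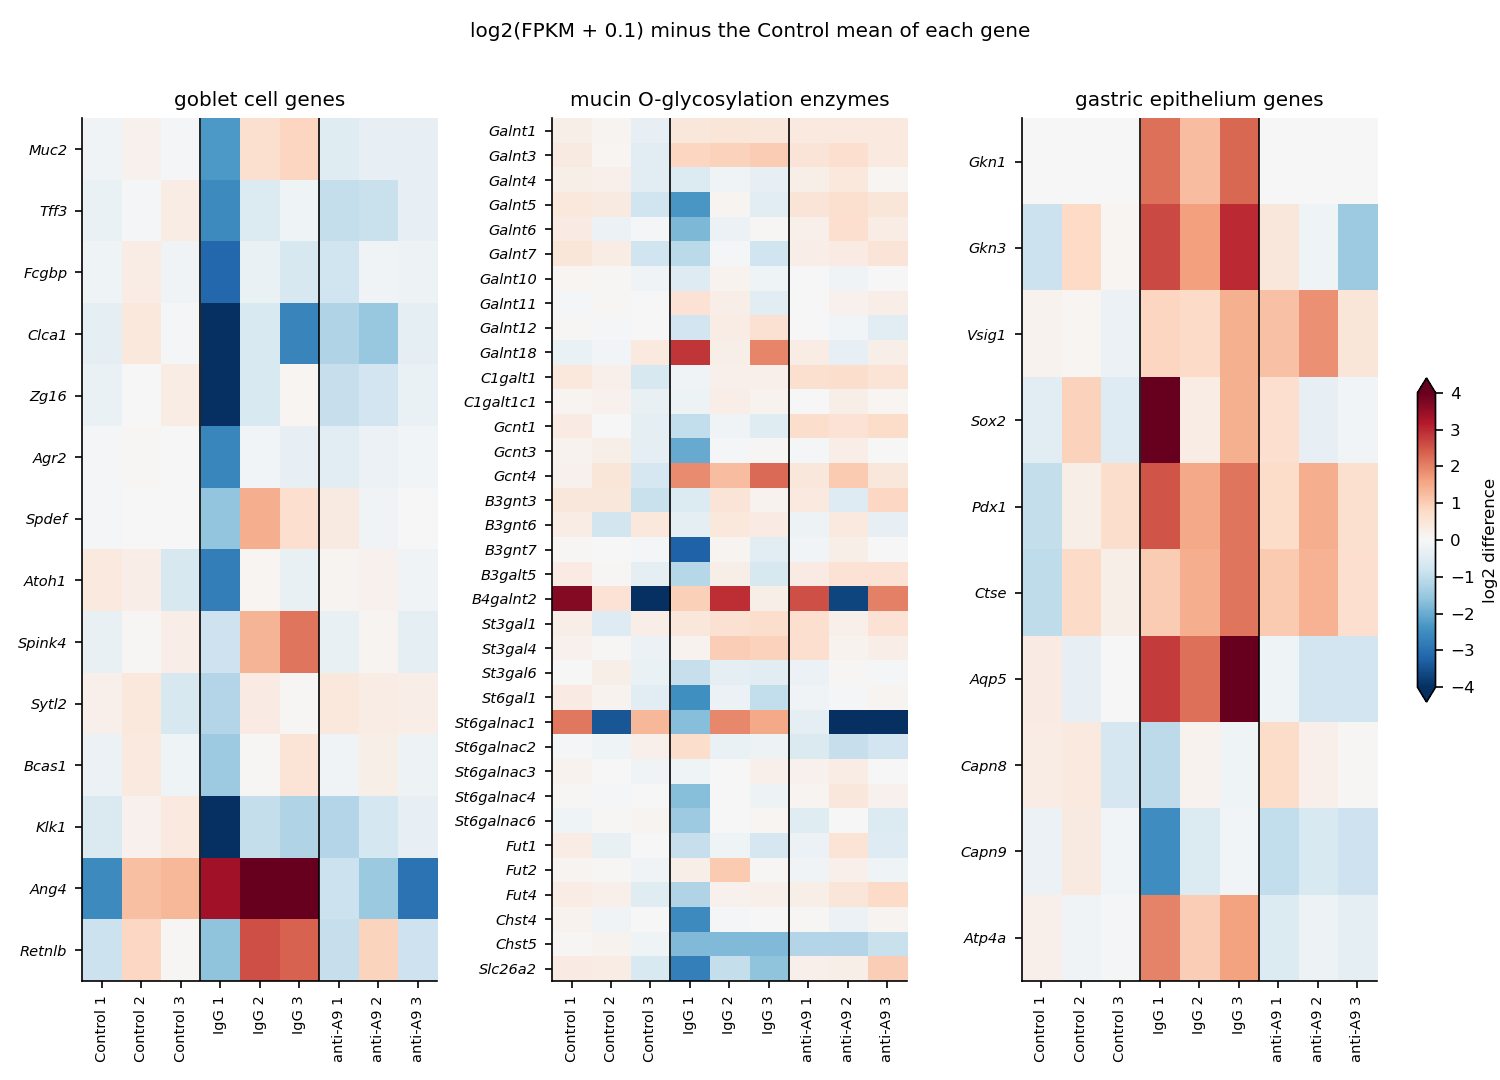
Heat map of log2(FPKM + 0.1) minus the Control mean of each gene, for the tested goblet cell (14), mucin O-glycosylation (35) and gastric epithelium (10) genes in the 9 samples; colors stop at 4 in either direction. Gkn1, Gkn3, Aqp5, Pdx1 and Atp4a are red in all 3 IgG samples, and IgG 1 is the bluest column of the goblet cell panel.

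Partners and receptors of mucins and trefoils made a list of 11, of which 9 were tested. None passed in IgG against Control, beside 8.18% of all genes as higher and 3.01% as lower. None passed in anti-A9 against Control by limma, beside 0.00655% in each direction. In anti-A9 against IgG 1 of 9 rose and 0 fell, beside 6.72% and 14.4% of all genes, and nothing is read from this count. The gene was Erbb3, the receptor that pairs with the Muc4 partner Erbb2. It was 37.9, 46.1 and 30.2 FPKM in Control, 20.4, 26.2 and 25.5 in IgG and 37.2, 52.3 and 38.9 in anti-A9 mice (0.82 ± 0.20, adjusted p = 0.0249), a call that was lost without IgG replicate 1 or 3 or any anti-A9 sample (adjusted p up to 0.0898). The median log2 difference of the list in that comparison was 0.29 against -0.06 over all genes.

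Genes whose log2 values over the 9 samples were most like those of each member are given as a description, because the samples share groups and libraries. Muc1 was most like Dgat2 (Pearson r = 0.98), Ptp4a1 and Gm1045, and Muc20 most like Prom1 (r = 0.96), Mlf1 and Ccl3. Muc3 was most like Sult1a1 (r = 0.99), Bnipl and Folr2, and Muc13 most like Dok4 (r = 0.99), Cyp2d26 and Slc13a2. Muc4 was most like Sytl5 (r = 0.98), Rsc1a1 and Dab2, and A4gnt most like Kcnk6 (r = 0.97), Gria3 and Adamtsl1; A4gnt and Muc4 had an r of 0.84 with each other. The low gastric-type genes were most like genes with low medians: Muc6 was most like Khdc1c (r = 1.00), Dnah17 and Dsg3, Tff1 most like Adam28, Prr9 and D730048I06Rik (r = 1.00, 0.99 and 0.99), and Tff2 most like Tshb (r = 1.00), Hsd17b3 and Six4. The medians of these 9 genes over the 9 samples were at most 0.0264 FPKM.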

How the data were processed

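RNA of 9 mouse colon samples was sequenced. The authors deposited 1 file per mouse with FPKM values by gene symbol; the unit was read from the values, and the submitters' processing notes name TopHat, Cufflinks, HTSeq, DESeq and GRCm38 with no role. The 46 rows with a repeated symbol were summed. Log2(FPKM + 0.1) was fitted with limma 3.58.1 in R 4.3.3 on all 9 samples with an intensity trend, without a replicate block, for the 15278 genes that reached 0.1 FPKM in 3 or more samples; calls used a Benjamini-Hochberg adjusted p under 0.05. The count test of the authors (DESeq) was not repeated, because no counts were used here. The 10 members are named throughout. Genes of lists were named by the size of their log2 fold change among those called. At most 4 were named for IgG against Control and 2 for each other comparison. Muc2, Tff3, S100a9 and the 3 most correlated genes of each member were named as well. Other names (Muc3a, Muc5b, Sox2, Gkn2, Atp4a, Atp4b, Chst4, Gif, Cldn18, Defa17, Itln1 and the squamous markers) were added after their values were seen. The members and lists were chosen with earlier results of these data known. Gene positions are from GENCODE M21 (97.5% of symbols named). Alternatives were other constants, filters, scalings, sample sets, a replicate block and the study's thresholds. Samples are labelled as biological replicates.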

Additional observations from a re-analysis of the deposited data

How the results depend on the processing

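Each result was recomputed under 11 other settings and in 9 fits without 1 sample. The calls of Muc6 and Tff1 kept their direction and stayed below an adjusted p of 0.05 in both comparisons with IgG mice in all 9 fits without 1 sample. These fits kept the genes that passed the filter on all 9 samples. Muc6 and Tff1 passed it through their IgG samples, so the fits are not separate support for the calls. Muc6 in IgG against Control was lost with 1 FPKM added (adjusted p = 0.0513, limma). With at least 1 FPKM required in at least 3 samples, Tff1 and Tff2 were not tested. Members higher in IgG against Control were 3, but 1 with 1 FPKM added or with the 1 FPKM filter. They were 2 with only the 2 groups compared, 4 without the trend, 5 by the study's thresholds, and 2 to 3 without 1 sample. Members lower were 0, but 1 by the study's thresholds and 0 to 1 without 1 sample (1 is Muc3, without IgG replicate 2). In anti-A9 against IgG, members lower were 3, but 1 with the 1 FPKM filter and 2 with 1 FPKM added. They were 4 by the study's thresholds and 2 to 4 without 1 sample, and members higher were 0 to 1 without 1 sample. Over all genes, IgG against Control gave 1250 higher and 460 lower, 502 and 101 with only the 2 groups compared, 793 lower by the study's thresholds, and 513 to 1476 higher and 82 to 793 lower without 1 sample. Anti-A9 against IgG gave 1026 and 2193, 1280 lower by the study's thresholds, and 92 to 1444 and 431 to 2662 without 1 sample. Anti-A9 against Control gave 1 and 1, 3 higher with 0.01 added, 0 lower without a filter or without the trend, 0 and 0 with only the 2 groups, 349 and 132 by the study's thresholds, and 0 to 4 and 0 to 1 without 1 sample. The cause of these moves was not tested, beyond fewer samples or genes.

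Some log2 differences reversed. In IgG against Control, Muc4 was -0.05 without Control replicate 3 or IgG replicate 3 and -0.00275 without IgG replicate 2 (range without 1 sample -0.0507 to 0.71), A4gnt was 0.04 without Control replicate 1 and 0.64 without IgG replicate 1 (-0.97 to 0.64), and Muc2 was 0.75 without IgG replicate 1 (-0.83 to 0.75). In anti-A9 against IgG, A4gnt was -0.0611 and Tff3 -0.38 without IgG replicate 1 (-0.0611 to 1.55 and -0.38 to 0.82), and Muc2 was 0.34 and 0.45 without IgG replicates 2 and 3 (-1.13 to 0.45) and 0.10 after quantile normalization. In anti-A9 against Control, Muc1 was 0.10 without Control replicate 2 and 0.07 without anti-A9 replicate 1 (-0.56 to 0.10), Muc13 was 0.25 after quantile normalization, and Gkn3 was 0.00109 without Control replicate 2 and 0.14 without anti-A9 replicate 3 (-0.82 to 0.14). Scaling by median of ratios or quantiles moved the median of all genes in IgG against Control from 0.09 to -0.00924 and -0.03.

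Whether replicate numbers pair the samples cannot be decided from the values. Deviations of same-numbered samples correlated by 0.154, -0.187 and 0.0910 between IgG and Control, by -0.134, 0.249 and 0.112 between anti-A9 and Control, and by 0.123, 0.103 and -0.0493 between anti-A9 and IgG. Samples of other numbers gave -0.256 to 0.148, -0.267 to 0.190 and -0.133 to 0.0511, respectively. The highest value between any 2 groups was thus of a same-numbered pair, and the lowest of other numbers. With the replicate number as a block, IgG against Control gave 1209 higher and 494 lower genes, anti-A9 against IgG 1135 and 2226, and anti-A9 against Control 1 and 1, and the members called were 3 higher, 3 lower and 0. The unknown depth limits what can be said of Tff1, Tff2, Muc5ac and Control Muc6, which lie within a few steps of the lowest listed value.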
